A study of Mus musculus with 4 samples.

Results

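The 10 genes described here encode the classical pathway of antigen presentation on MHC class I. They are the heavy chains *H2-K1* and *H2-D1*, the light chain *B2m*, the peptide transporter and its bridge *Tap1*, *Tap2* and *Tapbp*, the immunoproteasome subunits *Psmb8*, *Psmb9* and *Psmb10*, and the transactivator *Nlrc5*. They were taken by name from the 20197 genes of the table, and all 10 were found there. The cells were 4T1, a wild-type mouse mammary tumor line that models triple negative breast cancer. They had been stained with MitoSpy Red (20 nM), which accumulates in mitochondria of high membrane potential (MMP), and sorted for the top 5% (high MMP) or the bottom 5% (low MMP) of the signal. There were 2 samples of high MMP cells and 2 of low MMP cells, each from 100000 cells of the same line and culture medium, with no genetic change and no treatment other than the dye. The labels number the samples 1 and 2 in each group without saying whether they came from separate cultures. The study's legend gives the 2 samples a group as separate experiments or tumors, without tying them to these numbers or saying which were sorted together. The p-values measure only the spread between these samples.

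MHC class I molecules show peptides from inside the cell to CD8 T cells. Proteasomes cut proteins into peptides, the transporter TAP carries these into the endoplasmic reticulum, and tapasin holds TAP against the empty heavy chain and B2m until a peptide fits. Interferon-gamma, NF-kB and NLRC5 are known inducers of these genes, and tumor cells often show reduced levels of them.

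Values are normalized reads, scaled by the authors so that each library sums to 20000000, and each difference is that of high MMP from low MMP cells, taken as log2(value + 1). The libraries held 22591970 to 26395015 reads, and each member had between 69 and 13750 reads in each library. The high MMP 1 library stood apart from the other 3 in its share of reads from mitochondrially encoded genes. This share was 1.35% in it, against 2.15% to 2.37% in the others. Across 12877 genes with a mean of at least 10, which are not independent replicates, the difference between high MMP 1 and high MMP 2 went down with exonic length (Spearman rho = -0.31). Its median was 0.15 in the lowest quartile of length and -0.16 in the highest. The low MMP libraries also differed with length. The difference between low MMP 1 and low MMP 2 went up with it (rho = 0.22), with medians of -0.059 and 0.053 in these quartiles. For the group difference, rho with length was -0.00076. The epithelial markers *Epcam*, *Cdh1*, *Krt7*, *Krt8*, *Krt18* and *Krt19* summed to 47117 and 65235 in high MMP cells and to 54640 and 62591 in low MMP cells. These sums are mainly keratins, and *Cdh1* (E-cadherin) by itself was lower in both high MMP libraries, with 3903 and 4726 against 5421 and 5426 normalized reads (-0.34, SE 0.12, limma adjusted p = 0.498). Of 10 leukocyte markers 4 were analysed, with sums of 72.0 and 150.6 in high and 108.9 and 157.8 in low MMP cells, and *Ptprc*, the common leukocyte marker, had at most 2 reads. Of 6 fibroblast markers 3 were analysed, and their sums were 334 and 397 in high and 572 and 620 in low MMP cells, nearly all of it *Pdgfra* (log2 difference -0.72, SE 0.11, limma adjusted p = 0.472), which DESeq2 called as lower in high MMP cells (adjusted p = 0.0399), while *Dcn* had at most 9.09 normalized reads and *Col1a1* at most 34.0. The sums of 3 endothelial markers were at most 12.9. The part of these differences in the results below was not tested.

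Among the 10 members, the heavy chains, the TAP subunits and tapasin were lower in both high MMP libraries than in both low MMP libraries. *B2m*, the immunoproteasome subunits and *Nlrc5* overlapped between the groups. The lower genes were *H2-K1*, *H2-D1*, *Tap1*, *Tap2* and *Tapbp*, 5 of the 10, and none of the 10 was higher in both high MMP libraries. *H2-D1* counts among them by a narrow margin, with 7451 normalized reads in high MMP 2 against 7454 in low MMP 1. Of all genes, 24.5% were lower in both high MMP libraries (23.7% where the mean was 10 or more), and 13.5% were higher in both. The size of the difference ranged from 0.581 times the low MMP level for *Tap1* to 0.857 times for *H2-D1*. No member passed the adjusted threshold of 0.05 in limma, nor did any other gene (0% of 20197). At an unadjusted p under 0.05 there was 1 member, *Tap1*, against 9.96% of all genes (6.01% lower in high MMP cells). edgeR without a block called 0 of the 10 and 0% of all genes. edgeR with the replicate block also called 0 of the 10 (0.525% of all genes), as did DESeq2 (0.985% of the 11974 genes to which it gave an adjusted p). edgeR with the numbers crossed, a block chosen after seeing the data, called *Tap1* and *Tap2*, where 1.89% of all genes were called as lower. The median difference of the 10 members was -0.17, beside -0.044 for all genes, and 8 members had a negative difference, as did 58.6% of all genes. In bulk RNA, fewer cells that express a gene and less RNA of it per cell cannot be told apart.

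**Figure D1:**
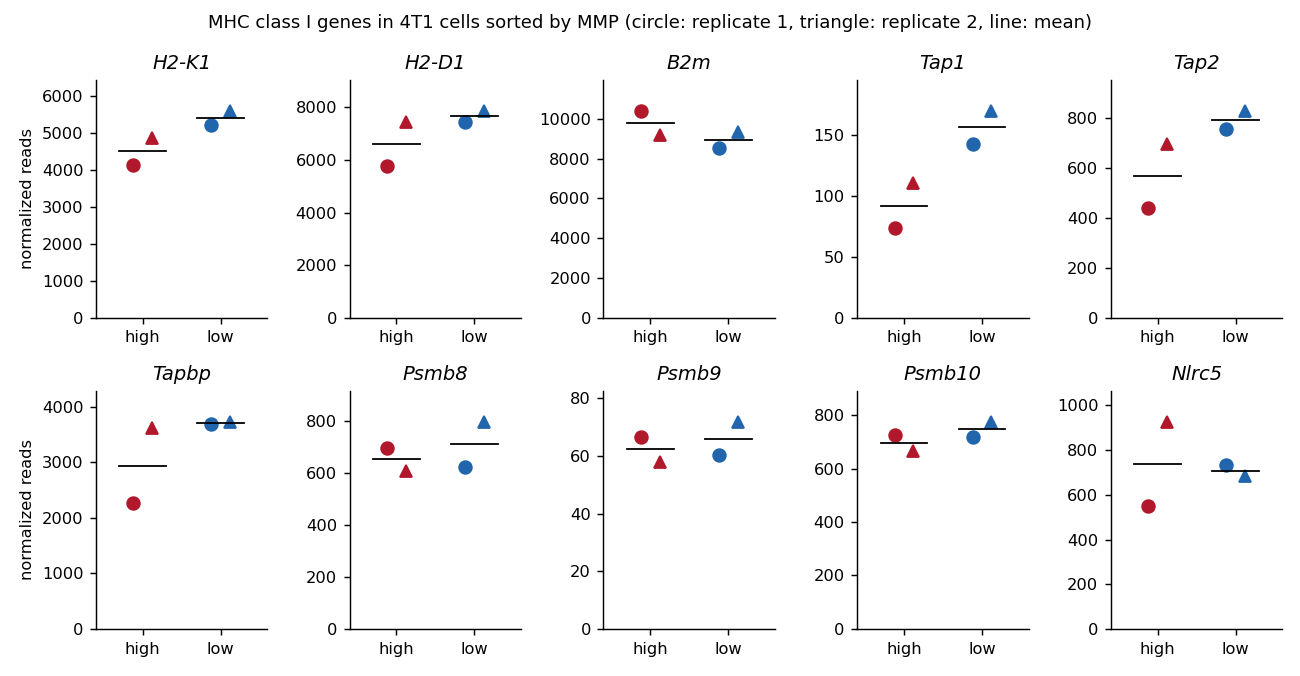
Normalized reads (vertical axes, starting at 0) of the 10 class I genes in each library of high and low MMP cells, with circles for replicate 1, triangles for replicate 2 and a line for the mean of 2. *H2-K1*, *H2-D1*, *Tap1*, *Tap2* and *Tapbp* sit lower in both high MMP libraries, by little in high MMP 2 for *H2-D1* and *Tapbp*, and the other 5 genes overlap.

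*Tap1* had the largest difference among the members. It encodes a subunit of TAP, the pump that moves peptides into the endoplasmic reticulum, and lies on GRCm38 chromosome 17, 34187553 to 34197225 (ENSMUSG00000037321). It had 73.5 and 110.5 normalized reads in high MMP 1 and 2, and 143.0 and 170.0 in low MMP 1 and 2. Both high MMP libraries were thus below both low MMP libraries, and high MMP 1 was the lowest. The mean was 92.0 ± 26.1 (SD, n = 2) in the high MMP group and 156.5 ± 19.1 (SD, n = 2) in the low MMP group. The log2 difference was -0.78 (SE 0.25, 95% interval -1.47 to -0.098), with an unadjusted p of 0.0334 and an adjusted p of 0.472 in limma. Over the alternatives the adjusted p ranged from 0.00045 to 0.938. These values rest on 97 and 132 reads in high and 164 and 192 reads in low MMP cells. Without high MMP 1 the difference was -0.49 (SE 0.17), and without high MMP 2 it was -1.07 (SE 0.18).

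*Tap2* encodes the partner subunit of the transporter and lies further along chromosome 17 (34203527 to 34216321). It had 437 and 693 normalized reads in high MMP cells and 754 and 828 in low MMP cells. The groups did not overlap, but high MMP 2 was closer to low MMP 1 than to high MMP 1. The log2 difference was -0.52 (SE 0.25, limma adjusted p = 0.615), which fell short of the threshold. It was -0.19 (SE 0.092) without high MMP 1.

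*Tapbp* encodes tapasin, which bridges TAP and the heavy chain during peptide loading (chromosome 17, 33915899 to 33929292). It had 2262 normalized reads in high MMP 1, 3623 in high MMP 2, 3687 in low MMP 1 and 3724 in low MMP 2. Only high MMP 1 stood apart, and the other 3 libraries were close to each other. The fitted difference was -0.37 (SE 0.25, limma adjusted p = 0.734), and without high MMP 1 it was -0.033 (SE 0.039). *Tapbp* shares 3422 bases of its locus with *Zbtb22* on the same strand, a gene with 700 to 894 normalized reads per library.

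*H2-K1* and *H2-D1* encode the polymorphic heavy chains that bind the peptide. *H2-K1* (chromosome 17, 33996017 to 34000347) had 4120 and 4861 normalized reads in high MMP cells and 5190 and 5589 in low MMP cells. The groups did not overlap, and the log2 difference was -0.27 (SE 0.12, 95% interval -0.59 to 0.057, limma adjusted p = 0.591). *H2-D1* (chromosome 17, 35262730 to 35267499) had 5784 and 7451 in high and 7454 and 7875 in low MMP cells. High MMP 2 and low MMP 1 were thus level, and the fitted difference of -0.22 (SE 0.15, limma adjusted p = 0.751) was -0.040 (SE 0.063) without high MMP 1. Heavy chain values carry a further uncertainty. The line comes from BALB/c mice, whose heavy chain alleles differ from those of the C57BL/6 reference and which have an additional locus, H2-L, with no counterpart in that reference. How mismatched and multiply matching reads were counted is not given in the sources used here. Of the 75-base windows in the reference transcripts of *H2-K1*, 3.1% also occur in a transcript of another gene, most often *H2-Q10*, and for *H2-D1* this share was 5.4%, most often *H2-Q1*. For *Tapbp* it was 1.1%, and for the remaining 7 members it was 0%.

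*B2m* encodes the invariant light chain that every class I heavy chain needs to reach the surface (chromosome 2, 122147686 to 122153083). It had 10419 and 9178 normalized reads in high MMP cells and 8524 and 9347 in low MMP cells. The groups overlapped, and the difference was 0.13 (SE 0.12, 95% interval -0.19 to 0.45, limma adjusted p = 0.813). The gene lies within *Patl2* on the opposite strand, which had at most 2.62 normalized reads. Set against *B2m* in the same library, a ratio that does not depend on the library total, *H2-K1* stood at 39.6% and 53.0% in high MMP and 60.9% and 59.8% in low MMP cells. For *H2-D1* these ratios were 55.5% and 81.2% in high and 87.5% and 84.3% in low MMP cells. Both heavy chain genes are longer than *B2m*, with 2938 (*H2-K1*) and 2579 (*H2-D1*) exonic bases against 860. The part of the length trend between libraries, described above, in these ratios was not tested. The ratios were formed after the values had been seen and carry no test.

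**Figure D2:**
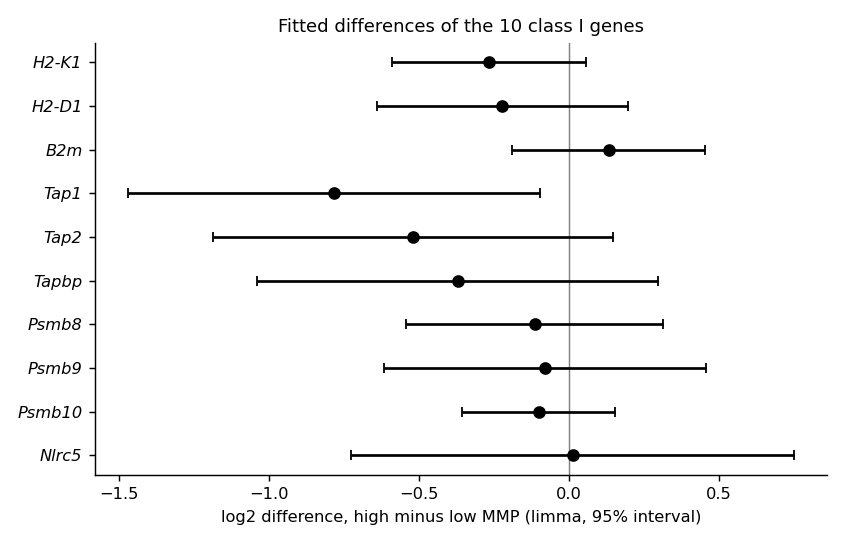
Fitted log2 difference (horizontal axis, high minus low MMP) of each class I gene, with its 95% interval from limma. *Tap1* alone has an interval below 0 (-1.47 to -0.098, before adjustment), and *B2m* and *Nlrc5* have estimates above 0.

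The immunoproteasome subunits replace the catalytic subunits of the standard proteasome when cells meet interferon, which changes the peptides that are cut. *Psmb8* (chromosome 17, 34197721 to 34201454) had 699 and 609 normalized reads in high and 626 and 798 in low MMP cells. *Psmb9* (chromosome 17, 34181987 to 34187764) had 66.7 and 57.7 in high and 60.2 and 71.7 in low MMP cells, on 69 to 88 reads. *Psmb10* (chromosome 8, 105935735 to 105938444) had 726 and 665 in high and 719 and 774 in low MMP cells. In all 3, the groups overlapped, and low MMP 2 was the highest library and high MMP 2 the lowest. The differences were -0.11 for *Psmb8* (SE 0.16, 95% interval -0.54 to 0.31), -0.081 for *Psmb9* (SE 0.20, -0.62 to 0.46) and -0.10 for *Psmb10* (SE 0.094, -0.36 to 0.15), with limma adjusted p-values of 0.821 to 0.964.

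To separate the exchange of subunits from the amount of proteasome, each was set against the constitutive subunit it replaces. *Psmb8* stood at 89.3% and 80.7% of *Psmb5* in high MMP and at 85.6% and 103.8% in low MMP cells. *Psmb9* stood at 1.99% and 2.24% of *Psmb6* in high and at 2.14% and 2.47% in low MMP cells. *Psmb10* stood at 18.4% and 20.6% of *Psmb7* in high and at 20.97% and 22.4% in low MMP cells. Only the last ratio did not overlap between the groups. These are ratios of normalized reads, not divided by length. The log2 ratios differed by -0.15, -0.12 and -0.16, in that order, with two-sided exact permutation p-values of 0.667, 0.667 and 0.333 (each 0.667 after adjustment over the 3 ratios). With 2 samples against 2 the smallest p that this test allows is 0.333, so it cannot reach the threshold.

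*Nlrc5* encodes the transactivator that occupies class I promoters and drives most of these genes (chromosome 8, 94434356 to 94527272). Its 2 high MMP libraries lay on either side of the low MMP libraries, with 549 in high MMP 1 and 926 in high MMP 2 against 731 and 684 in low MMP cells. The group difference was 0.011 (SE 0.27, 95% interval -0.73 to 0.75, limma adjusted p = 0.994), and its direction turned with the library that was left out. It was 0.39 (SE 0.072) without high MMP 1, and -0.36 (SE 0.074) without high MMP 2.

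Levels of different genes were compared per kilobase of exonic sequence. *B2m* was the most abundant, at a mean of 10892 normalized reads per kilobase over the 4 libraries (9912 to 12115). *H2-D1* followed with 2769 (2243 to 3054), *H2-K1* with 1681 (1402 to 1902) and *Tapbp* with 916 (623 to 1027). *Psmb10* was at 423 (390 to 454), *Psmb8* at 202 (180 to 236), *Tap2* at 179 (116 to 219) and *Nlrc5* at 85.1 (64.7 to 109.0). *Tap1* at 22.7 (13.4 to 31.0) and *Psmb9* at 17.5 (15.8 to 19.6) were the lowest. The ranges of *Psmb8* and *Tap2* overlapped, as did those of *Tap1* and *Psmb9*, so their order is not resolved. The other neighbours in this order did not overlap. The exonic length is the union over all annotated transcripts of a gene, which makes a gene with long rare isoforms appear lower.

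High MMP 1 was the lowest of the 4 libraries for 6 of the 10 members, namely *H2-K1*, *H2-D1*, *Tap1*, *Tap2*, *Tapbp* and *Nlrc5*. Among all genes with a mean of at least 10 this was the case for 37.3%. Relative to the mean of the other 3 libraries, high MMP 1 had 52.1% of the *Tap1* level, 57.7% of *Tap2*, 61.5% of *Tapbp*, 70.4% of *Nlrc5*, 76.2% of *H2-D1* and 79.0% of *H2-K1*. It had 101% to 106% of the level of the 3 immunoproteasome subunits and 116% of *B2m*. Because of this, single libraries were also compared with each other. For *H2-K1*, *H2-D1*, *Tap1*, *Tap2* and *Tapbp*, whose groups did not overlap, a lower value in each of the 4 combinations follows from that. It is no further check, but the amounts were unequal. For *Tap1* the differences were -0.95 (high 1 with low 1), -1.20 (high 1 with low 2), -0.62 (high 2 with low 2) and -0.37 (high 2 with low 1). For *H2-D1* they were -0.37, -0.45, -0.080 and -0.00065 in the same order. The median of the 10 members was -0.16 without high MMP 1 and -0.38 without high MMP 2.

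**Figure D3:**
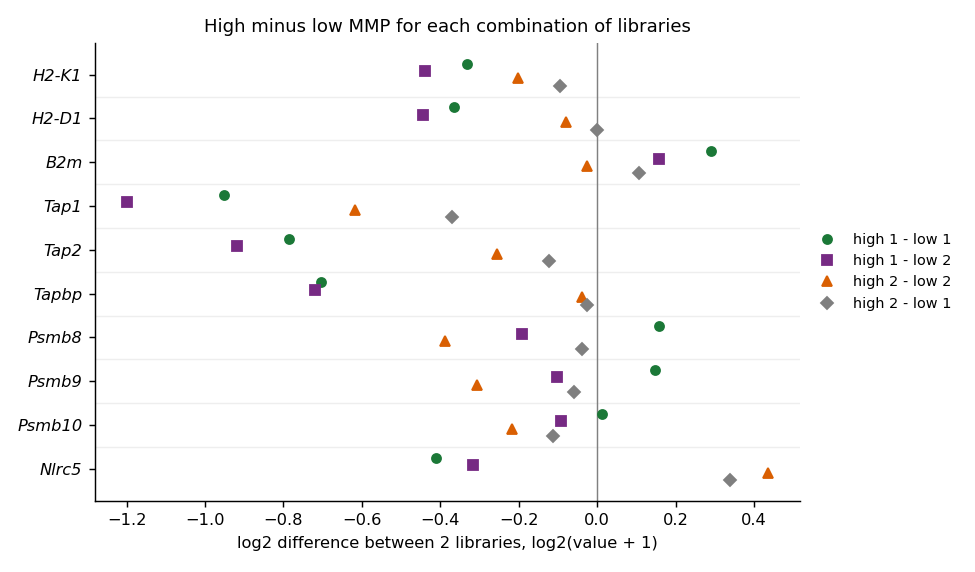
Log2 difference (horizontal axis) of each class I gene for the 4 combinations of 1 high and 1 low MMP library; each combination has 1 sample per group and no replicate check. Those with high MMP 1 (circles, squares) reach -1.20 for *Tap1*, whereas those with high MMP 2 (triangles, diamonds) stay between -0.62 and 0.44 for all 10 genes.

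Of the 10 members, 7 lie on chromosome 17, 2 on chromosome 8 and 1 on chromosome 2. *Psmb9*, *Tap1*, *Psmb8* and *Tap2* follow each other within 34335 bases of chromosome 17 (34181987 to 34216321). Within this cluster the transporter genes and the proteasome genes alternate, and so did their levels in high MMP 1. High MMP 1 was at 59.2% of the 4-library mean for *Tap1* and 64.5% for *Tap2*, but at 104.1% for *Psmb9* and 102.3% for *Psmb8*. High MMP 2 did not share this pattern, with 88.9% for *Tap1* and 102.2% for *Tap2* beside 90.1% for *Psmb9* and 89.2% for *Psmb8*. *Tap1* and *Psmb9* are transcribed away from each other and overlap by 212 bases. The ratio of *Tap1* to *Psmb9* was 110% and 190% in high MMP cells and 235% in both low MMP libraries. That of *Tap2* to *Psmb8* was 62.6% and 114% in high and 120% and 104% in low MMP cells, so only the first did not overlap between the groups. These ratios were also chosen after the values had been seen.

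**Figure D4:**
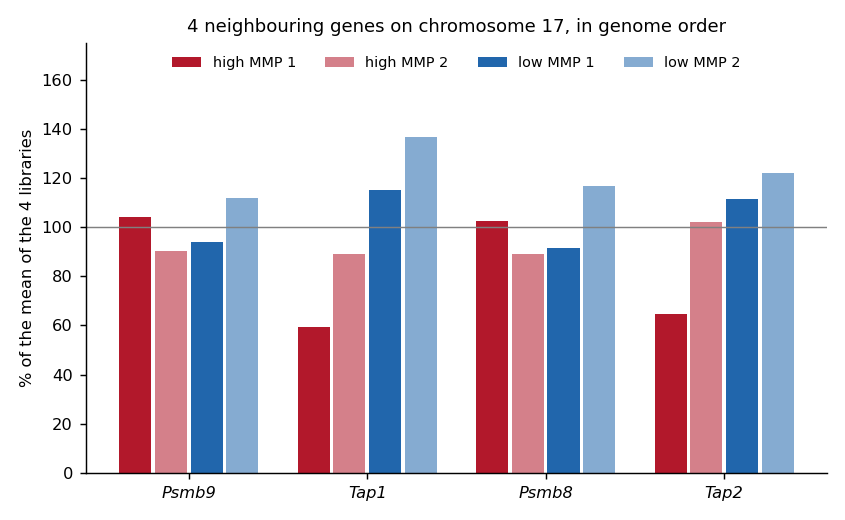
Level of 4 neighbouring genes in each library as a percentage of the mean of the 4 libraries (vertical axis, from 0), in their order along chromosome 17. *Tap1* and *Tap2* have their lowest bars in high MMP 1 (59.2% and 64.5%), where *Psmb9* and *Psmb8* stand at 104.1% and 102.3%.

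Class I promoters carry a conserved module on which NLRC5 and its partners assemble. Its parts include an X2 box that resembles a cAMP response element and a Y box with an inverted CCAAT. To show which members have these letters, the sequence upstream of the transcription start is given for both heavy chains (*H2-K1*, *H2-D1*), the light chain (*B2m*) and *Tap1*, which shares its promoter with *Psmb9*. The sequences are from RefSeq on GRCm38.p6, the C57BL/6J reference, and end at the base before the start. Capitals mark TGACG (the letters of the X2 core) and CCAAT or its reverse complement ATTGG (the letters of the Y box). They also mark the interferon response core, which is GAAA followed after 2 bases by a second GAAA. A marked stretch is a match of letters and need not be a working box. The stretches are chr17:34000348-34000507 on the minus strand for *H2-K1*, and on the plus strand chr17:35262934-35263093 for *H2-D1*, chr2:122147527-122147686 for *B2m* and chr17:34187306-34187555 for *Tap1*.
H2-K1: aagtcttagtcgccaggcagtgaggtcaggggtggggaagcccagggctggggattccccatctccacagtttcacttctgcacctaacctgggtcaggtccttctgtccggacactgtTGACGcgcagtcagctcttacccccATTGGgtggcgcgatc
H2-D1: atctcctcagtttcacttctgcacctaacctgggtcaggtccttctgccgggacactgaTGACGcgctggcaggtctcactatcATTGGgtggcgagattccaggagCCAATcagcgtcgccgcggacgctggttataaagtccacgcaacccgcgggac
B2m: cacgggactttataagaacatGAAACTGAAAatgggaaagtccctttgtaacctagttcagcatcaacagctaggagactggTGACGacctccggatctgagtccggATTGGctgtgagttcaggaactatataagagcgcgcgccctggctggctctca
Tap1: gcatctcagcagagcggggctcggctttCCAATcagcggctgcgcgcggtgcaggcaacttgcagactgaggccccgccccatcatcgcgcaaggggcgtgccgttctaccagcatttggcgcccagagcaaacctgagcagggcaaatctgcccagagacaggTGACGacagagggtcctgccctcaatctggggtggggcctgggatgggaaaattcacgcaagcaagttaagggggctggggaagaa

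Promoters of 8 members were matched by symbol in the RefSeq table, and windows of 250 bases before the start were searched on both strands. TGACG and CCAAT occurred together in 5 of the 8, *H2-K1*, *H2-D1*, *B2m*, *Tap1* and *Psmb9*, compared with 6.12% of 32851 windows in the table. TGACG alone was in 17.8% of windows and CCAAT in 33.8%. In *H2-K1*, *H2-D1* and *B2m*, TGACG started 41, 101 and 78 bases before the annotated start, and an inverted CCAAT started 16, 76 and 53 bases before it, so the spacing was the same in all 3 genes. In *Tap1* and *Psmb9* the matches are the same bases (TGACG at 34187470 to 34187474 and CCAAT at 34187334 to 34187338), read from opposite sides. They start 86 and 222 bases before the *Tap1* start, a wider spacing than in *H2-K1*, *H2-D1* and *B2m*. Read toward *Tap1*, CCAAT comes before TGACG and is not inverted, so order and orientation also differ from those 3 genes. *H2-D1* holds a further CCAAT that is not inverted, 53 bases before its start. As exact letters, the interferon response core was in *B2m* only (2.98% of windows) and TTCNNNGAA (the GAS element) in *Psmb8* only (7.02%). The NF-kB pattern of GGG and CC set 5 bases apart was in 5 of 8 members (45.8%). Variants of these letters were not counted, so a promoter without a match, such as that of a heavy chain, may still hold such an element. Of the 5 genes with TGACG and CCAAT, 3 did not overlap between the groups, all lower in both high MMP libraries, and 2 did. *Tapbp*, which did not overlap between the groups either, held CCAAT without TGACG. Over all genes, 24.5% were lower and 13.5% higher in both high MMP libraries. *Tap1* and *Psmb9* hold the same matched bases but fall on opposite sides of this count, so the 5 genes are not separate cases. A link between these letters and the differences was not tested.

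The rest of the pathway was examined with lists of 83 genes, of which none passed the adjusted threshold in limma, in either direction. None of the 83 had an unadjusted p under 0.05 there, beside the 9.96% of all genes given above. Among 15 other class I and class I-like chains, 13 had a negative difference, with a median of -0.15, and 8 were lower in both high MMP libraries without overlap, while none was higher in both. Over all genes these shares were 58.6%, 24.5% and 13.5%. These 8 were *H2-Q2*, *H2-Q4*, *H2-Q6*, *H2-Q7*, *H2-Q10*, *H2-T22*, *H2-T23* and *Hfe*. *H2-Q6*, a gene of the Qa region, had the smallest p, with 89.4 and 116.3 normalized reads in high and 139.5 and 148.7 in low MMP cells (difference -0.49, SE 0.18, limma adjusted p = 0.505). *H2-Q4*, the most abundant of these, had 1355 and 1881 in high and 2086 and 2164 in low MMP cells (-0.41, SE 0.18, limma adjusted p = 0.578). *Hfe*, a class I-like regulator of iron uptake, had 102.3 and 122.2 in high and 127.3 and 151.4 in low MMP cells (-0.31, SE 0.17, limma adjusted p = 0.690). High MMP 1 was the lowest library for 11 of these 15 genes. The H2-Q genes resemble one another in sequence. How many read-length windows they share was not counted, so single values among them are uncertain.

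**Figure D5:**
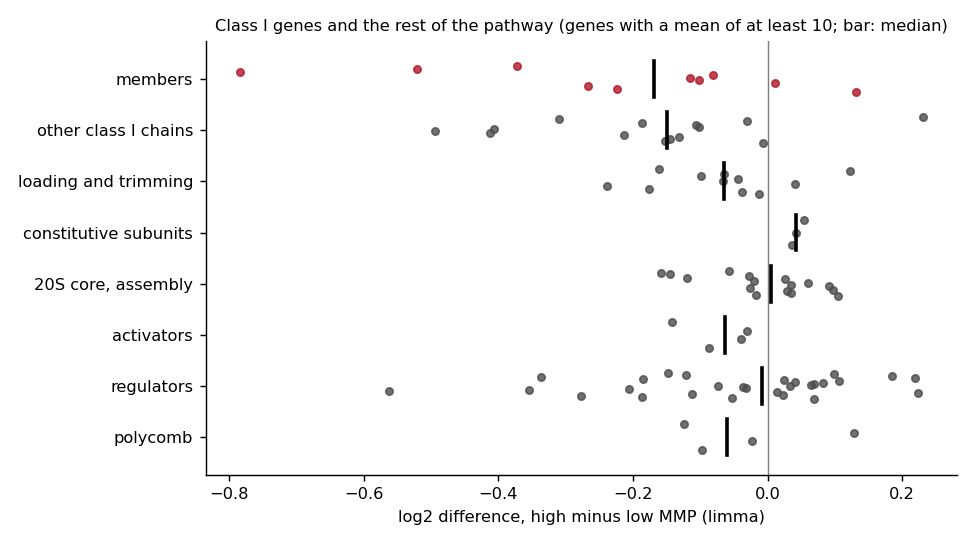
Fitted log2 difference (horizontal axis, high minus low MMP) of each gene with a mean of at least 10, by pathway list, with a bar at the list's median. The members extend furthest to the left (*Tap1* at -0.78), and the core proteasome genes lie between -0.16 and 0.11.

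Among the 11 genes of peptide loading, trimming and folding, 3 were lower in both high MMP libraries and 1 was higher in both, *Tpp2*. Over all genes these shares were 24.5% and 13.5%. *Canx*, a lectin chaperone that folds heavy chains, had 14328 and 15982 normalized reads in high and 17008 and 17173 in low MMP cells (-0.18, SE 0.12, limma adjusted p = 0.736). *Tpp2*, a cytosolic peptidase, had 4817 and 4318 in high and 4222 and 4160 in low MMP cells (0.12, SE 0.094, limma adjusted p = 0.779). *Erap1*, the aminopeptidase that trims peptides in the endoplasmic reticulum, had 965 and 1486 in high and 1476 and 1354 in low MMP cells, which overlapped (-0.24, SE 0.23, limma adjusted p = 0.835).

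The constitutive counterparts of the immunosubunits differed by 0.036 for *Psmb5* (SE 0.080), 0.042 for *Psmb6* (SE 0.15) and 0.054 for *Psmb7* (SE 0.13), and all 3 overlapped between the groups. Of 16 structural subunits and assembly factors of the 20S core, 15 overlapped and 1, the assembly chaperone *Psmg2*, was lower in both high MMP libraries (-0.14, SE 0.081, limma adjusted p = 0.689). Over all genes, 24.5% were lower and 13.5% higher in both, which is the background for each count of this paragraph. Next by p were the assembly chaperone *Psmg3* (-0.16, SE 0.15, limma adjusted p = 0.836) and the structural subunit *Psmb4* (-0.12, SE 0.12, limma adjusted p = 0.850). The 4 proteasome activators had differences of -0.14 to -0.030, with a median of -0.064, and 1 of them, *Psme4*, was lower in both high MMP libraries (-0.14, SE 0.087, limma adjusted p = 0.711). *Psme1* and *Psme2*, which form the activator induced by interferon-gamma, overlapped, with -0.087 (SE 0.089, limma adjusted p = 0.850) and -0.040 (SE 0.080, limma adjusted p = 0.948).

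Of 29 transcription factors and components of interferon signalling, 4 were lower and 4 higher in both high MMP libraries, and 21 overlapped, where 24.5% and 13.5% of all genes were lower or higher in both. *Ifngr1*, the ligand-binding chain of the interferon-gamma receptor, had 657 and 838 normalized reads in high and 924 and 876 in low MMP cells (-0.28, SE 0.14, limma adjusted p = 0.661). *Irf2*, a factor that binds the same elements as *Irf1*, had 884 and 719 in high and 681 and 684 in low MMP cells (0.22, SE 0.13, limma adjusted p = 0.690). *Irf9*, the DNA-binding part of the type I interferon complex, had 230 and 210 in high and 236 and 273 in low MMP cells (-0.21, SE 0.13, limma adjusted p = 0.716). Of 9 interferon ligands 1 was analysed, *Ifnb1*, with at most 1 read in any library, a depth at which no difference between the groups could be detected. Of 4 polycomb genes, which are known to silence class I genes, *Eed* and *Suz12* were lower and *Pcgf1* higher in both high MMP libraries. The differences were -0.098 (SE 0.071), -0.12 (SE 0.083) and 0.13 (SE 0.13), in that order. The shares of all genes lower or higher in both were again 24.5% and 13.5%.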

How the data were processed

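RNA-sequencing of 4 sorted 4T1 samples (200 ng of RNA, stranded mRNA libraries, 75 bases) was analysed. The authors aligned reads to GRCm38 (mm10) with STAR and counted them per gene. HTSeq is also named in the submitters' processing notes. Versions and strand setting are not given in the sources used here. The authors divided counts by the library total and kept genes found in at least 2 samples, so the deposited values are a normalized signal summing to 20000000 per library. Values were whole multiples of 1 step per library (100.0% of values within 0.05 of a whole read), which gave depth and the reads used for count models.

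Symbols, positions and lengths came from GENCODE M21 (19993 of 20197 identifiers matched). log2(value + 1) was tested with limma 3.58.1 (eBayes with trend, R 4.3.3), adjusted by Benjamini-Hochberg over all genes. Alternatives were edgeR 4.0.16 (quasi-likelihood), DESeq2 1.42.0, other scalings, pseudocounts, filters, blocks and left-out libraries. The fits were tested on simulated data. All 10 members, the 3 genes of smallest p with a mean of at least 10 in each pathway list, and the constitutive subunits are named by rule. Others, including those in counts of non-overlapping genes, were named after their values were seen. The members and lists were chosen with earlier results of these data known.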

Additional observations from a re-analysis of the deposited data

How the results depend on the processing

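There were 2 libraries a group. *Psmb9* and *Tap1* had the fewest reads of the members (69 to 192), so counting error weighs most on them. The count of members called stayed at 0 in the alternatives run, except in edgeR with crossed numbers as the block, which called 2 members and 1 of 83 pathway genes. The count of members at an unadjusted p under 0.05 was 1 in limma (9.96% of all genes). It was 0 with quantile normalization and with limma without trend, 2 with a mean of at least 1 or at least 10, 2 in DESeq2, 2 with the replicate block in either limma or edgeR, and 4 in edgeR with crossed numbers. Leaving out 1 library gave 0 to 6: 6 without high MMP 2 (16.6% of all genes), 1 without high MMP 1 (11.2%), 0 without low MMP 1 (4.44%) and 0 without low MMP 2 (4.46%). Over the other alternatives, 3.27% (DESeq2) to 11.9% (edgeR with crossed numbers) of all genes passed. The median difference of the members ranged from -0.375 (without high MMP 2) to -0.116 (without low MMP 2), and was -0.276 without low MMP 1. Of 170 member values under 17 alternatives, 5 turned sign, all on leaving out a library. *Nlrc5* ranged from -0.364 to 0.387 (-0.037 without low MMP 2), *Psmb8* from -0.290 to 0.060, and *Psmb9* from -0.206 to 0.044 (0.021 without high MMP 2). The cause was not tested.

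Same-numbered samples did not deviate together (correlation -0.421 across 12902 genes), so the numbers are not read as pairs. With 1 sample left in a group, that sample is assumed to vary like the others. Rescaling moved the median of all genes by 0.034 to 0.044 and changed no member's direction.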

Other observations

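Of 6 genes of the MHC class II pathway, normally found in professional antigen-presenting cells, 4 were analysed and 3 had more than 10 reads in each library. *Cd74*, the invariant chain, had 252 and 197 normalized reads in high and 193 and 247 in low MMP cells, *H2-DMa* 80.3 and 53.6 against 58.4 and 60.2, and *H2-Ab1* 13.6 and 10.0 against 11.3 and 17.7. *H2-Aa*, with 0 reads in high and at most 2 in low MMP cells, and the class II transactivator *Ciita*, with at most 4 reads, were at or near 0. The groups overlapped for *Cd74*, *H2-DMa* and *H2-Ab1*.

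Several interferon and cytokine response genes, named after their values were seen, differed more within the groups than between them. *Socs3*, a feedback inhibitor of cytokine signalling, had 770 and 267 normalized reads in high MMP 1 and 2 and 297 and 1103 in low MMP 1 and 2. *Irf7*, an interferon-inducible factor, had 46.2 and 20.9 in high and 34.9 and 62.0 in low MMP cells. *Irf1*, an activator of class I genes, had 1309 and 1090 in high and 1085 and 1536 in low MMP cells. In all 3, high MMP 1 and low MMP 2 were the higher libraries, which are also the higher libraries for *Psmb8*, *Psmb9* and *Psmb10* but not for the heavy chains, *Tap1* or *Tap2*.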
